A study of Mus musculus with 9 samples.

Results

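The genes described here are 8 genes of Schwann cells and myelin, *Mbp*, *Pmp22*, *Sox10*, *S100b*, *Prx*, *Egr2*, *Ncmap* and *Gfap*, in RNA-Seq of mouse iris. They were taken by their symbols from the 18349 genes listed in each library, and all 8 were among the 15010 genes with enough counts to test. Iris RNA was sequenced in 9 libraries, 3 per group, each made from 3 pooled irises. Sham *VEGFR3fl/fl* mice received PBS on the cornea, and injured *VEGFR3fl/fl* and injured *VEGFR3iLECko* mice had the cornea exposed to sodium hydroxide (0.5 μL at 1 M) for 60 seconds at 6 weeks of age (corneal alkali injury, CAI). Irises were collected at 10 weeks of age, 28 days after CAI. All mice carried floxed *VEGFR3* on both alleles and received tamoxifen at 80 mg/kg on days 13 to 17. The *VEGFR3iLECko* mice also carried *Prox1-CreERT2*, a tamoxifen-inducible Cre under the promoter of *Prox1*, a regulator of lymphatic endothelial cells (LECs), and their *VEGFR3fl/fl* littermates did not. The deletion was therefore designed to act in *Prox1*-expressing cells, and no library isolated Schwann cells or LECs.

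Schwann cells are the glia of peripheral nerves. The myelinating kind wraps an axon in compact myelin, a stack of membrane held together by proteins such as myelin basic protein and PMP22, and the nonmyelinating kind ensheathes several thin axons without myelin. The transcription factor SOX10 is needed throughout the lineage, EGR2 (also called KROX20) drives the myelin genes, and after nerve damage Schwann cells can lower their myelin genes and take on a repair state that depends on the transcription factor JUN. The iris is densely supplied by sensory and autonomic nerve fibers, and its stroma also holds melanocytes, which share a neural crest origin and *SOX10* expression with Schwann cells.

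Sequences 5′ of the start sites show how 6 of the 8 genes differ in their annotated starts. RefSeq promoter sequences (GRCm38.p6) were matched for 6 of the 8 genes, *Pmp22*, *S100b*, *Prx*, *Egr2*, *Ncmap* and *Gfap*, in 14 windows of 250 bases that end just before an annotated start. *Pmp22* is shown because it has 4 such starts, which counts per gene do not separate, and *S100b* and *Prx* because both fell after CAI from a single annotated start. Capitals mark CG dinucleotides. All 4 windows are on the plus strand, at chr10:76253586-76253835 for *S100b*, chr7:27499074-27499323 for *Prx*, and chr11:63128732-63128981 and chr11:63131207-63131456 for the first and second start of *Pmp22*.
S100b: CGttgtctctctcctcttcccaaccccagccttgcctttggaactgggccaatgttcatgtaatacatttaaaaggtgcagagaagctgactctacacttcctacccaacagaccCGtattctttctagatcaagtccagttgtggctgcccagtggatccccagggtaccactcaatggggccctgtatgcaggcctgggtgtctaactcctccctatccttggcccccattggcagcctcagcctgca
Prx: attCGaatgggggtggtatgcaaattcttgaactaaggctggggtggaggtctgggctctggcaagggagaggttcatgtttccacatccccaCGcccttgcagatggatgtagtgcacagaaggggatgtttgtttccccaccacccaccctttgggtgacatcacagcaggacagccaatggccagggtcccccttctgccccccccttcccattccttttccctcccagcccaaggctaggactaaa
Pmp22 first start: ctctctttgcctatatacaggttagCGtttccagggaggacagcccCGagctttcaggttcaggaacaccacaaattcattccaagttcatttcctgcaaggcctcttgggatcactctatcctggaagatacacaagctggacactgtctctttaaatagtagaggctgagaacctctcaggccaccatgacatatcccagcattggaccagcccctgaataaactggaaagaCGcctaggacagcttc
Pmp22 second start: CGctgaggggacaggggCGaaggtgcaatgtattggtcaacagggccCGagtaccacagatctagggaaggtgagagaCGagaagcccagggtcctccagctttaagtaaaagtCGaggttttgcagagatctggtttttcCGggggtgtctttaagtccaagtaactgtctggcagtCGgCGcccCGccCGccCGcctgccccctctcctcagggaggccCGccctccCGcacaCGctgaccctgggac
The window of *S100b* held 2 CG dinucleotides and that of *Prx* also 2, against a median of 6 over all 32851 windows of this length. The first *Pmp22* window held 3 and the second 14. Their GC content was 53.6% for *S100b*, 56.4% for *Prx*, 48.8% for the first *Pmp22* start and 61.2% for the second, with a median of 52.4% over all windows. Both strands were searched for ACAAAG, the core bound by SOX proteins, for GCGNGGGCG, the motif of the EGR family, and for TATAAA. None of the 14 windows held these letters, which occurred in 16.5%, 4.7% and 12.4% of all windows, and this says nothing of binding elsewhere.

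Total counts per library lay between 16617187 and 18306359. The targeted gene, *Flt4*, which encodes VEGFR3, stood at 282, 237 and 265 counts with PBS (replicates 1 to 3) and at 277, 353 and 400 with CAI in *VEGFR3fl/fl*. With CAI in the group labelled *VEGFR3iLECko* it stood at 478, 370 and 476, so whole iris RNA did not show a lower level in that group, and the results below compare libraries by their labels. Against Sham the *Flt4* level of that group was 1.74-fold higher (edgeR adjusted p = 0.00161). The genotype tags of *VEGFR3iLECko* replicates 2 and 3 name other VEGFR numbers, whereas their titles and descriptions name VEGFR3. All 6 iris markers checked had counts in every library, with *Pax6* at 194 or more CPM throughout. Levels are given in CPM, counts scaled to the size of the library after TMM normalization. A gene was called changed when edgeR's quasi-likelihood test gave an adjusted p under 0.05 over all 15010 genes and the change exceeded 1.5-fold. With 3 libraries against 3, an exact permutation test of a single gene cannot give a p below 0.1.

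In the injured *VEGFR3fl/fl* iris, *Sox10*, *S100b* and *Prx* fell, *Egr2* and *Gfap* rose, and *Mbp*, *Pmp22* and *Ncmap* were not called. *Sox10* and *S100b* stood at 21.2% and 25% of their Sham means, whereas *Pmp22* stood at 96.4%. Of all genes tested, 22.1% rose, 17.5% fell and 39.7% were called in either direction, so 5 of 8 genes is a count to be read against a tissue in which many genes were called. Their median change was -0.30 on the log2 scale, and that of all genes tested was 0.01. *Mbp*, *Sox10*, *S100b* and *Prx* were lower in every injured *VEGFR3fl/fl* library than in every Sham library, as were 32.4% of all genes, and *Egr2* was higher in each, as were 33.9%. In bulk tissue, the number of Schwann cells, the RNA per Schwann cell and the share of other cells in the tissue cannot be told apart. This holds for the genes that fell and for those that rose, and the cells that held their RNA were not identified.

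**Figure D1:**
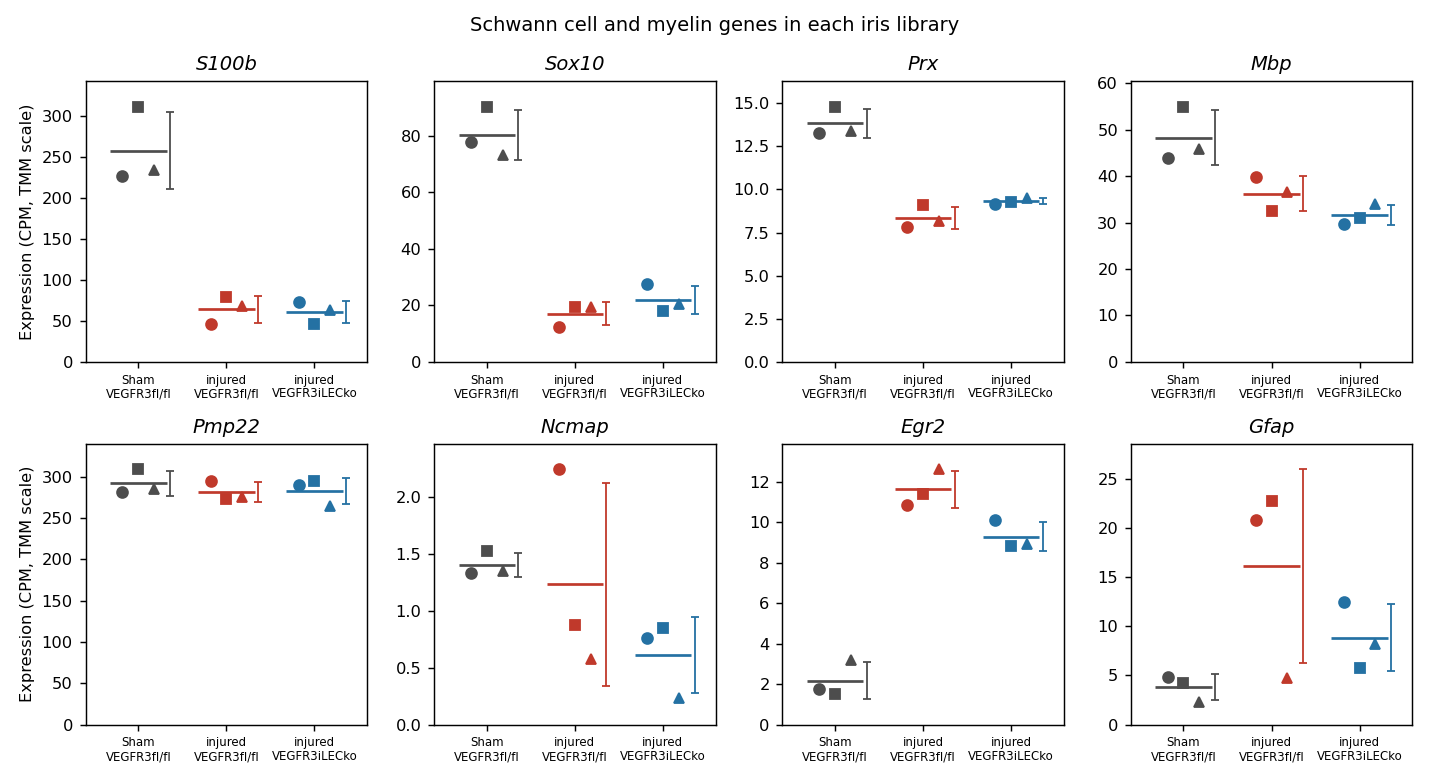
Expression of the 8 genes in each library (y axis, CPM on the TMM scale, linear from 0) by group (x axis). Circles, squares and triangles are replicates 1, 2 and 3, horizontal lines are group means and bars are ± 1 SD over 3 libraries. All injured libraries lie below all Sham libraries for *S100b*, *Sox10*, *Prx* and *Mbp*, and above them for *Egr2*.

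SOX10 specifies and maintains the Schwann cell lineage. *Sox10* (NCBI Gene ID 20665, mm10 chr15:79154908-79165240, minus strand) was at 77.7, 90.4 and 73.1 CPM in Sham replicates 1 to 3, at 12.3, 19.6 and 19.4 CPM in injured *VEGFR3fl/fl* and at 27.5, 18.0 and 20.4 CPM in injured *VEGFR3iLECko*. Every injured library was far below every Sham library, and the injured groups overlapped. The fall in injured *VEGFR3fl/fl* was 4.70-fold (log2 fold change -2.23, SE 0.21, adjusted p = 1.97e-05), with a 95% interval from -2.70 to -1.76. Injured *VEGFR3iLECko* differed from injured *VEGFR3fl/fl* by 0.36 on the log2 scale, with an interval from -0.11 to 0.82 (edgeR adjusted p = 0.305).

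S100B is a calcium-binding protein of Schwann cells and other glia that is widely used to stain peripheral nerve. *S100b* (NCBI Gene ID 20203, mm10 chr10:76253853-76261159, plus strand) was at 227, 312 and 234 CPM in Sham, at 46.4, 78.7 and 68.1 CPM in injured *VEGFR3fl/fl* and at 72.6, 46.5 and 63.1 CPM in injured *VEGFR3iLECko*. Again the injured libraries of both genotypes overlapped and lay below all Sham libraries, of which replicate 2 was the highest. The fall after CAI in *VEGFR3fl/fl* was 4.0-fold (log2 fold change -2.0, SE 0.23, adjusted p = 6.89e-05), and injured *VEGFR3iLECko* differed from injured *VEGFR3fl/fl* by -0.09 with an interval from -0.59 to 0.42 (edgeR adjusted p = 0.841). *S100b* overlaps *Dip2a* on the opposite strand, and whether the counting used strand is not given in the sources used here. *Dip2a* was at 51.5 to 61.0 CPM in Sham and 26.2 to 37.8 CPM in injured *VEGFR3fl/fl*, a log2 change of -0.72 (edgeR adjusted p = 0.00345) that was -0.57 and no longer called without injured *VEGFR3fl/fl* replicate 1.

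Melanocytes also express *SOX10* and S100 proteins, and the 6 pigment cell markers moved with these genes. All 6 markers fell in injured *VEGFR3fl/fl* against Sham, where 17.5% of all genes did, with a median log2 fold change of -2.17. Their summed level was 27380 to 29240 CPM in Sham, 3367 to 5787 CPM in injured *VEGFR3fl/fl* and 5040 to 7067 CPM in injured *VEGFR3iLECko*, and none was at 0 in any group. Their lowest sum, like the lowest *Sox10* and *S100b* levels, was that of injured *VEGFR3fl/fl* replicate 1. Of the 6 iris markers, 1 of which is also a pigment cell marker, 4 fell after CAI, beside the same 17.5% of all genes. Their summed level was 13450 to 15570 CPM in Sham, 2322 to 3992 CPM in injured *VEGFR3fl/fl* and 3882 to 4476 CPM in injured *VEGFR3iLECko*. *Pax6*, a transcription factor of the iris epithelium, fell by 1.82 on the log2 scale, and *Myh11*, a myosin of smooth muscle, was 10.1-fold lower. The part of pigment cells and of other iris cells in the fall of *Sox10* and *S100b* was not tested. The tested genes whose log2 levels followed *Sox10* most closely over the 9 libraries were *Mlana*, *Cdk15* and *Rab3b*, each with a Pearson r of 0.996. Those nearest to *S100b* were *Mtfp1* (0.996), *Cited1* (0.995) and *Gstp1* (0.995). These 9 points share the group structure, so any gene that fell in both injured groups correlates with *Sox10*.

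Periaxin, encoded by *Prx*, is a scaffold protein that myelinating Schwann cells use to link their outer membrane to the basal lamina. *Prx* (NCBI Gene ID 19153, mm10 chr7:27499324-27520214, plus strand) was at 13.3, 14.8 and 13.4 CPM in Sham, at 7.83, 9.07 and 8.15 CPM in injured *VEGFR3fl/fl* and at 9.17, 9.29 and 9.50 CPM in injured *VEGFR3iLECko*. The 3 groups did not overlap, with Sham highest and injured *VEGFR3fl/fl* lowest. The fall after CAI was 1.65-fold in *VEGFR3fl/fl* (log2 fold change -0.73, SE 0.11, adjusted p = 0.00039). The injured *VEGFR3iLECko* level was 0.16 higher on the log2 scale than that of injured *VEGFR3fl/fl*, with an interval from -0.09 to 0.41 (edgeR adjusted p = 0.393), although all 3 libraries were higher, as they were for 12.4% of all genes. Against Sham, injured *VEGFR3iLECko* was 1.48-fold lower (adjusted p = 0.00191), just inside the 1.5-fold limit and therefore not called. Without Sham replicate 1 or replicate 3, this change was -0.60 or -0.59 on the log2 scale and was called. *Fibcd1*, *Kdsr* and *Ccdc13* followed *Prx* most closely, with r from 0.992 to 0.993 over 9 libraries.

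Myelin basic protein binds the inner faces of the myelin membrane together. *Mbp* (NCBI Gene ID 17196, chromosome 18, 16 annotated transcripts over 110492 bases) was at 44.0, 55.0 and 45.8 CPM in Sham, at 39.9, 32.4 and 36.5 CPM in injured *VEGFR3fl/fl* and at 29.8, 31.1 and 34.0 CPM in injured *VEGFR3iLECko*. Every injured library was below every Sham library, and the injured groups overlapped. The difference between injured *VEGFR3fl/fl* and Sham was 1.33-fold (log2 -0.41, interval -0.66 to -0.16, edgeR adjusted p = 0.0096), which did not reach the 1.5-fold limit. Scaled by library size alone, which shifts the median log2 change of all genes by -0.17, it was -0.59 and was called. In injured *VEGFR3iLECko* against Sham *Mbp* fell 1.53-fold (log2 -0.61, adjusted p = 0.00137). That call was lost without Sham replicate 2, at -0.51, and without injured *VEGFR3iLECko* replicate 1, at -0.57. The difference between the injured groups was -0.20, with an interval from -0.45 to 0.05 (edgeR adjusted p = 0.294), so the 2 comparisons with Sham were not shown to differ. *Hdhd5* (r 0.98), *Nol7* (0.968) and *B4gat1* (0.966) had the most similar pattern.

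PMP22 is a tetraspan protein of compact myelin that fibroblasts and endothelial cells make as well. *Pmp22* (NCBI Gene ID 18858, mm10 chr11:63128982-63159547, plus strand) was at 281, 309 and 285 CPM in Sham, at 295, 272 and 276 CPM in injured *VEGFR3fl/fl* and at 290, 294 and 265 CPM in injured *VEGFR3iLECko*. The 3 groups overlapped throughout. Its log2 fold changes were -0.05 (interval -0.23 to 0.12) after CAI and 0.01 (interval -0.16 to 0.18) between the injured groups, so that changes of more than 1.5-fold lay outside both intervals. Of 6 fibroblast markers 4 rose after CAI, where 22.1% of all genes did. The fibroblast markers had summed levels of 3799 to 4366 CPM in Sham, 15500 to 22500 CPM in injured *VEGFR3fl/fl* and 16410 to 20720 CPM in injured *VEGFR3iLECko*. None was at 0 in all libraries, and the part of fibroblasts in the level of *Pmp22* was not tested. The genes nearest to *Pmp22* were *Ift52* (r 0.944), *Cactin* (0.939) and *Gps1* (0.91).

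*Ncmap* encodes a small membrane protein of peripheral myelin and was near the limit of detection. *Ncmap* (NCBI Gene ID 230822, mm10 chr4:135369576-135398227, minus strand) had 24, 27 and 24 counts in Sham, 37, 15 and 10 counts in injured *VEGFR3fl/fl* and 13, 15 and 4 counts in injured *VEGFR3iLECko*. All *VEGFR3iLECko* libraries were below Sham, but injured *VEGFR3fl/fl* spanned both. At this depth the log2 fold change after CAI, -0.19, had an interval from -1.42 to 1.04, and that between the injured groups, -0.99, had an interval from -2.30 to 0.31. Without injured *VEGFR3fl/fl* replicate 1 these were -0.94 and -0.24. No change of *Ncmap* was therefore detectable between any groups in the fit of all libraries (edgeR adjusted p from 0.109 to 0.78). Against Sham, however, the *VEGFR3iLECko* value of -1.18 was called without injured *VEGFR3fl/fl* replicate 1 (edgeR adjusted p = 0.0475). The same value was called when the 6 libraries compared were fitted alone (edgeR adjusted p = 0.0401). *Rpp25l* (r 0.953), *Rtl8c* (0.949) and *Adprhl2* (0.946) were nearest to it.

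EGR2 is the transcription factor that switches on the myelin genes, and it is also an early response gene of lymphocytes and macrophages. *Egr2* (NCBI Gene ID 13654, mm10 chr10:67535475-67542188, plus strand) had 32, 27 and 57 counts in Sham, 179, 195 and 220 counts in injured *VEGFR3fl/fl* and 173, 156 and 155 counts in injured *VEGFR3iLECko*. In CPM these were 1.77, 1.53 and 3.21 in Sham, 10.9, 11.4 and 12.6 in injured *VEGFR3fl/fl*, and 10.1, 8.84 and 8.92 in injured *VEGFR3iLECko*. The groups did not overlap, and injured *VEGFR3fl/fl* was highest. *Egr2* rose 5.35-fold after CAI in *VEGFR3fl/fl* (log2 fold change 2.42, SE 0.25, adjusted p = 4.07e-05) and 4.27-fold in *VEGFR3iLECko* against Sham (log2 2.09, adjusted p = 0.000127). The difference between the injured groups was -0.33 with an interval from -0.85 to 0.20 (edgeR adjusted p = 0.402), lower in 3 of 3 libraries, as were 14.3% of all genes.

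Markers of immune cells moved with *Egr2*. All 9 macrophage markers and all 6 T cell markers rose after CAI, where 22.1% of all genes did. The macrophage markers summed to 353 to 369 CPM in Sham, 3294 to 3624 CPM in injured *VEGFR3fl/fl* and 2089 to 2322 CPM in injured *VEGFR3iLECko*. Of them 5 were called lower in injured *VEGFR3iLECko* than in injured *VEGFR3fl/fl*, where 0.466% of all genes were. The T cell markers summed to 3.72 to 4.21 CPM, 37.1 to 54.3 CPM and 20.8 to 40.2 CPM in the same order. Between the injured groups 0 of the 6 T cell markers were called, and none of either list was at 0 in all libraries. The part of immune cells in the rise of *Egr2* was not tested. *Il27ra* (r 0.994), *Tcfl5* (0.991) and *Mmp27* (0.99) followed *Egr2* most closely over the 9 libraries.

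GFAP is an intermediate filament of astrocytes that nonmyelinating and injured Schwann cells make as well. *Gfap* (NCBI Gene ID 14580, mm10 chr11:102887336-102900912, minus strand) had 87, 75 and 41 counts in Sham, 343, 388 and 83 counts in injured *VEGFR3fl/fl* and 214, 102 and 142 counts in injured *VEGFR3iLECko*. On the CPM scale injured *VEGFR3fl/fl* replicates 1 and 2 stood at 20.8 and 22.7, but replicate 3 stood at 4.77, just below the highest Sham library at 4.82, so these groups overlapped. *Gfap* rose 4.24-fold (log2 fold change 2.08, SE 0.56, interval 0.83 to 3.34, adjusted p = 0.00989), and the rise was 2.52 on the log2 scale without replicate 3 and 1.75 without replicate 2. In injured *VEGFR3iLECko* its level of 8.82 ± 3.41 CPM (SD, n = 3) was above every Sham library, yet the log2 difference from Sham, 1.22, was not called (edgeR adjusted p = 0.0915). The call therefore depended on the setting. It was made without injured *VEGFR3fl/fl* replicate 3 (1.22, edgeR adjusted p = 0.0144), when the 6 libraries were fitted alone (1.22, edgeR adjusted p = 0.0148), with the replicate number as a block (1.30, edgeR adjusted p = 0.0447) and by DESeq2 (1.22, adjusted p = 0.0383). The difference of injured *VEGFR3iLECko* from injured *VEGFR3fl/fl* was -0.87 with an interval from -2.06 to 0.33 (edgeR adjusted p = 0.328). Of 7 astrocyte and Müller glia markers, 2 rose and 5 fell after CAI, where 22.1% and 17.5% of all genes did. None was at 0 in all libraries, and their summed level was 3031 to 3335 CPM in Sham, 3817 to 4375 CPM in injured *VEGFR3fl/fl* and 4116 to 4353 CPM in injured *VEGFR3iLECko*. *Vim*, an intermediate filament gene that fibroblasts and immune cells also express, made most of the sum of the injured libraries. Without it the sum was 2091 to 2500 CPM in Sham, 924 to 1075 CPM in injured *VEGFR3fl/fl* and 1333 to 1539 CPM in injured *VEGFR3iLECko*. Their part in the rise of *Gfap* was not tested. *Trpm4* (r 0.959), *Abhd11* (0.957) and *Bnip1* (0.946) had the most similar pattern.

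**Figure D2:**
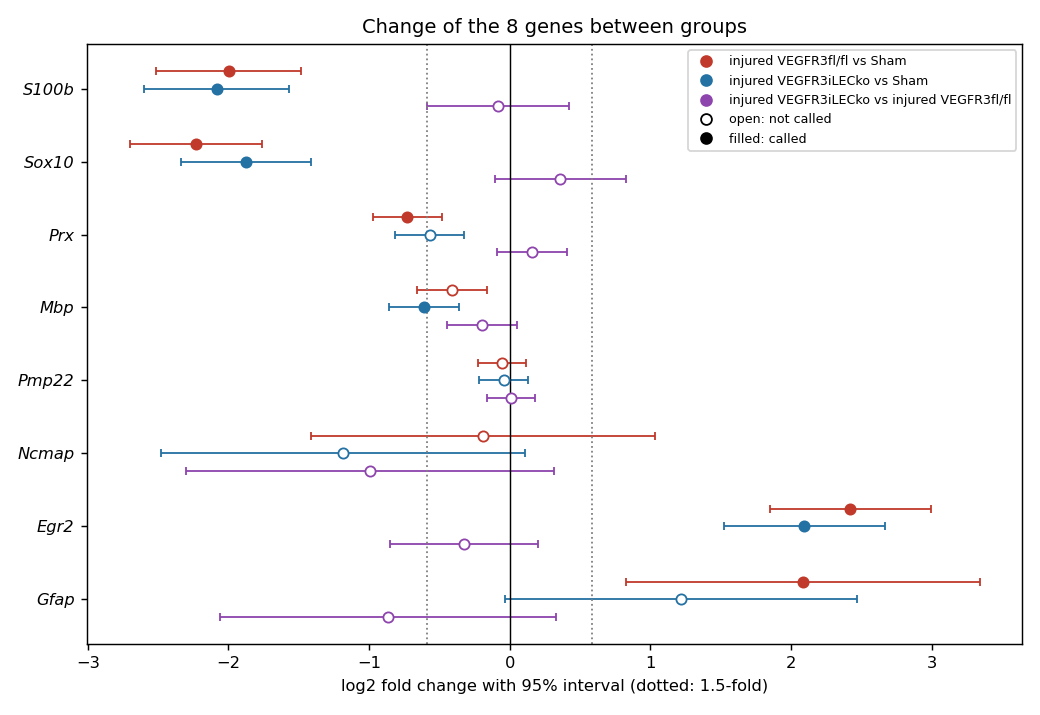
Log2 fold change of each of the 8 genes (x axis, linear) in the 3 comparisons, with 95% intervals from edgeR's quasi-likelihood fit. Filled points passed both thresholds, open points did not, and dotted lines mark 1.5-fold. All 8 intervals of injured *VEGFR3iLECko* against injured *VEGFR3fl/fl* include 0, and those of *S100b*, *Sox10* and *Egr2* against Sham lie beyond 1.5-fold in both genotypes.

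The comparison of injured *VEGFR3iLECko* with injured *VEGFR3fl/fl* gave 0 calls among the 8 genes by edgeR, beside 0 at an unadjusted p under 0.05, which 24.5% of all genes reached, and 0 by DESeq2. Across all genes edgeR called 1.04% (0.573% rose and 0.466% fell), and 0 of 8 by edgeR is read against that share. The share of all genes that DESeq2 called is not given here. For *Pmp22*, *Prx* and *Mbp* the whole interval lay within 1.5-fold in either direction. For *S100b*, *Sox10* and *Egr2* it passed that limit on 1 side, at -0.59, 0.82 and -0.85, and for *Gfap* and *Ncmap* it reached past a 4-fold fall. Injured *VEGFR3iLECko* and injured *VEGFR3fl/fl* were both compared with the same 3 Sham libraries. In injured *VEGFR3iLECko* against Sham, *Sox10* fell 3.67-fold, *S100b* 4.24-fold and *Mbp* 1.53-fold and *Egr2* rose, which is 4 of 8 genes where 34.8% of all genes were called (19.7% rose and 15% fell). *Mbp*, *Sox10*, *S100b*, *Prx* and *Ncmap* were lower in every library (33.2% of all genes were), and *Egr2* and *Gfap* were higher in every library (33.3% were). The 8 genes had a median change of -0.59 there and of -0.14 between the injured groups, with medians of -0.01 over all genes in both.

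Per transcript length, the order of the 8 genes changed after CAI. In approximate TPM, from the longest annotated transcript of each gene, Sham irises held *S100b* at 495 ± 70.2 and *Pmp22* at 458 ± 7.06 (SD, n = 3), whose ranges overlapped. Below them stood *Sox10* at 82.7 ± 6.71, *Mbp* at 28.7 ± 2.36 and *Prx* at 7.28 ± 0.182, each clear of its neighbors. *Gfap* at 4.10 ± 1.47, *Egr2* at 2.10 ± 0.900 and *Ncmap* at 2.0 ± 0.077 TPM came last and overlapped. In injured *VEGFR3fl/fl* *Pmp22* led alone at 359 ± 13.8 TPM and *S100b* followed at 102.5 ± 32.2 TPM. The next levels were those of *Mbp* at 17.6 ± 1.12, *Sox10* at 14.5 ± 4.47, *Gfap* at 14.0 ± 8.54 and *Egr2* at 9.19 ± 1.33 TPM, neighbors that overlapped. *Prx* at 3.60 ± 0.500 and *Ncmap* at 1.38 ± 0.885 TPM closed the order. In injured *VEGFR3iLECko* the order was *Pmp22* (402 ± 27.9), *S100b* (105 ± 19.8), *Sox10* (20.3 ± 3.92), *Mbp* (17.1 ± 1.41), *Gfap* (8.55 ± 3.04), *Egr2* (8.10 ± 0.393), *Prx* (4.44 ± 0.184) and *Ncmap* (0.795 ± 0.440) in mean TPM, where *Sox10* overlapped *Mbp* and *Gfap* overlapped *Egr2*. On this scale the mean *Pmp22* level of injured irises was lower than that of Sham, whereas the CPM values overlapped. Both come from the same counts and differ for a single gene only in how libraries were scaled. TPM was set to a fixed total without TMM factors, which were 1.05 to 1.09 in Sham and 0.90 to 1.01 in the injured libraries. The lower TPM is therefore not a second measurement of *Pmp22*.

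The 8 genes also differed in how evenly their libraries agreed. In injured *VEGFR3fl/fl* the coefficient of variation over 3 libraries was 4.29% for *Pmp22*, 7.73% for *Prx* and 7.78% for *Egr2*. It was 24.5% for *Sox10* and 25.5% for *S100b*, which were lowest in the same library, replicate 1. *Gfap* at 61.2% and *Ncmap* at 72.2% varied most, and their highest libraries were replicate 2 and replicate 1.

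Among 66 further genes of 8 Schwann cell and nerve lists, 59 could be tested. In injured *VEGFR3fl/fl* against Sham 15 rose and 16 fell, where 22.1% and 17.5% of all genes did, with a median log2 fold change of -0.02. Of the 6 other genes of myelin proteins 4 fell and 1 rose. *Pllp*, encoding plasmolipin, fell by 3.47 on the log2 scale and by 4.11 without injured *VEGFR3fl/fl* replicate 2. *Mal*, encoding a tetraspan protein of myelin, fell by 2.12. *Mag*, encoding an adhesion protein of the innermost myelin layer, rose by 1.66 from 1.55 to 1.75 CPM in Sham to 3.51 to 7.59 CPM. *Cnp*, an enzyme of noncompact myelin, changed by -0.38 and was not called, and in injured *VEGFR3iLECko* against Sham it fell by 0.64, a call lost without Sham replicate 2 at -0.58. Oligodendrocytes use several of the same genes. Of 7 oligodendrocyte markers 4 were listed and 3 could be tested, of which 1 rose and 1 fell, and *Mog*, which defines those cells, had at most 5 counts in a library and 0 in 5 of the 9.

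**Figure D3:**
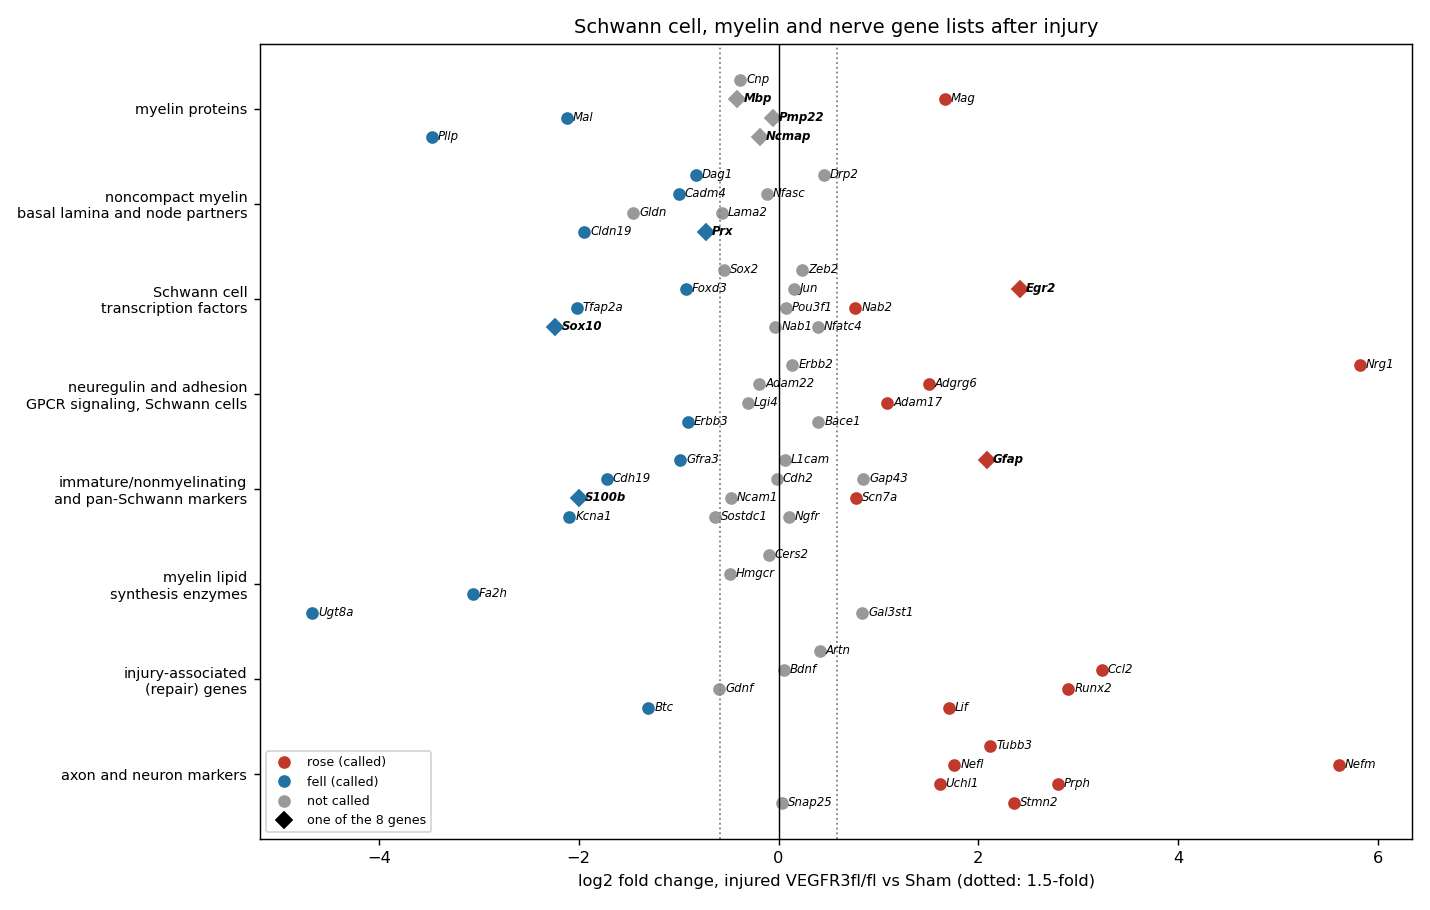
Log2 fold change in injured *VEGFR3fl/fl* against Sham (x axis, linear) of tested genes in 8 Schwann cell and nerve lists (rows). Red points rose, blue points fell, gray points were not called, diamonds mark the 8 genes and dotted lines mark 1.5-fold. The 6 called axon and neuron markers lie to the right, and *Ugt8a*, *Pllp* and *Fa2h* lie farthest to the left.

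Of the other noncompact myelin and basal lamina genes 3 of 7 fell beside *Prx*, where 17.5% of all genes fell. *Cldn19*, a tight junction gene of noncompact myelin that pigment epithelium expresses as well, fell by 1.94, *Cadm4*, an adhesion molecule that faces the axon, fell by 1.00, and *Dag1*, the dystroglycan of the basal lamina contact, fell by 0.83 on the log2 scale. Both called enzymes of myelin lipid synthesis fell, out of 5 tested. *Fa2h*, which hydroxylates the fatty acids of myelin lipids, fell by 3.06, and *Ugt8a*, which makes galactosylceramide, had 36 counts over the Sham libraries and 1 over injured *VEGFR3fl/fl*, a ratio of 38.7 with a counting interval from 6.51 to 1568.

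Regulators of the lineage included genes called in either direction, and their counts are read against the 22.1% of all genes that rose and 17.5% that fell. Of 9 further transcription factors tested 1 rose and 2 fell beside *Egr2* and *Sox10*. *Tfap2a*, expressed in Schwann cell precursors and melanocytes, fell by 2.02, and *Nab2*, which binds EGR proteins and tunes their activity, rose by 0.77. *Jun* was at 106, 105 and 133 CPM in Sham and 103, 156 and 124 CPM in injured *VEGFR3fl/fl*, overlapping values with a log2 difference of 0.15 (interval -0.19 to 0.49). Of 8 genes of neuregulin and adhesion receptor signaling in Schwann cells, 3 rose and 1 fell. Neuregulin carries the axon's signal to the Schwann cell. The ligand gene *Nrg1* had 4, 3 and 2 counts in Sham, 32, 214 and 265 counts in injured *VEGFR3fl/fl* and 277, 393 and 416 counts in injured *VEGFR3iLECko*. It rose by 5.82 on the log2 scale in injured *VEGFR3fl/fl*, with an interval from 3.92 to 7.72 (edgeR adjusted p = 0.000301). Its summed counts there were 52.9 times those in Sham after scaling to library size. The counting interval of that ratio, from 27.6 to 116, leaves out the spread between libraries. The receptor gene *Erbb3* fell by 0.91, whereas its partner *Erbb2* differed by 0.14 (interval -0.09 to 0.37) and was not called. *Adam17*, a protease that cuts neuregulin, rose by 1.09. *Adgrg6*, an adhesion receptor that Schwann cells need to start myelination, rose by 1.5 but rested on injured *VEGFR3fl/fl* replicate 1, at 34.4 CPM beside 7.38 and 14.1 CPM. Without that library its rise was 0.71 (adjusted p = 0.0476), and without Sham replicate 2 or 3 the call was lost (1.44 and 1.42).

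Of 10 further markers of immature, nonmyelinating and all Schwann cells 1 rose and 3 fell beside *S100b* and *Gfap*. Of all genes, 22.1% rose and 17.5% fell. *Cdh19*, a cadherin of Schwann cell precursors, was at 37.0, 35.9 and 35.2 CPM in Sham and 9.10, 10.8 and 12.9 CPM in injured *VEGFR3fl/fl*, a fall of 1.72 on the log2 scale. *Kcna1*, a potassium channel, fell by 2.09 and *Scn7a*, a sodium channel of nonmyelinating Schwann cells, rose by 0.78. *Ngfr*, the low-affinity neurotrophin receptor of immature and repair Schwann cells, differed by 0.10 (interval -0.71 to 0.91) and was not called. Of 7 tested genes associated with the repair state 3 rose and 1 fell, to be read against the same shares. Those that rose were *Ccl2* (3.23), a monocyte chemokine, *Runx2* (2.90), a transcription factor, and *Lif* (1.71), a cytokine, in log2 fold change, all of which other cells of inflamed or fibrous tissue also express.

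Of 7 tested axon and neuron markers 6 rose, where 22.1% of all genes did, with a median log2 fold change of 2.12. *Prph*, a filament of peripheral axons, was at 2.10, 2.71 and 1.80 CPM in Sham, 14.1, 17.6 and 14.3 CPM in injured *VEGFR3fl/fl* and 14.9, 14.7 and 10.9 CPM in injured *VEGFR3iLECko*. All injured libraries were above Sham, a rise of 2.79 on the log2 scale (edgeR adjusted p = 4.04e-06). *Nefm*, another neurofilament gene, rose by 5.61 but varied widely. It was at 96.3, 36.9 and 166 CPM in injured *VEGFR3fl/fl* and at 34.9, 106 and 17.7 CPM in injured *VEGFR3iLECko*. *Nefl* rose by 1.76, to 3.10 to 8.38 CPM in injured *VEGFR3fl/fl*. *Tubb3*, a neuronal tubulin, rose by 2.12 and *Uchl1*, a ubiquitin hydrolase of neurons, by 1.61. *Stmn2*, a gene of growing axons, rose by 2.36 or, without injured *VEGFR3fl/fl* replicate 2, by 1.58. *Snap25*, the tested marker not called after CAI, was at 12.7, 1.19 and 3.77 CPM in Sham and 1.15, 16.8 and 0.230 CPM in injured *VEGFR3fl/fl*. Its log2 difference was 0.04 (interval -2.86 to 2.94). Most neuronal cell bodies lie outside the iris. RNA in axons and RNA in other cells cannot be told apart here, and the source of these levels was not tested.

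Between injured *VEGFR3iLECko* and injured *VEGFR3fl/fl* edgeR called 0 of these 59 genes, where 1.04% of all genes were called. An unadjusted p under 0.05 was reached by 12 of the 59, below the 24.5% of all genes. DESeq2 called 4, *Cldn19*, *Gal3st1*, *Lif* and *Nefl*. The share of all genes that DESeq2 called is not given here, so these 4 cannot be read against it. *Cldn19* was at 23.0, 42.0 and 44.3 CPM in injured *VEGFR3fl/fl* and 63.6, 60.9 and 66.7 CPM in injured *VEGFR3iLECko*, a log2 difference of 0.81 (edgeR adjusted p = 0.0699). *Lif* was at 3.64, 6.79 and 8.61 CPM and at 31.0, 12.2 and 11.6 CPM in the same order, a difference of 1.52 (edgeR adjusted p = 0.0858) that was 0.90 without injured *VEGFR3iLECko* replicate 1. *Gal3st1*, a sulfotransferase of myelin lipids that was named after its values were seen, was at 5.40, 1.64 and 2.01 CPM and at 0.760, 0.793 and 0.921 CPM. It was lower in every *VEGFR3iLECko* library, with a log2 difference of -1.86 (edgeR adjusted p = 0.0699) that was -1.14 without injured *VEGFR3fl/fl* replicate 1 and was called, at -2.16, without replicate 2. *Nefl*, a neurofilament gene, was at 8.38, 3.10 and 4.31 CPM and at 1.87, 1.30 and 0.230 CPM, also lower in every *VEGFR3iLECko* library, with a log2 difference of -2.21 (edgeR adjusted p = 0.113). *Adgrg6* differed by -1.24 (adjusted p = 0.154), by -0.44 without injured *VEGFR3fl/fl* replicate 1 and by -1.62 without replicate 2, when edgeR called it. In injured *VEGFR3iLECko* against Sham 14 of the 59 rose and 17 fell, where 19.7% and 15% of all genes did.

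**Figure D4:**
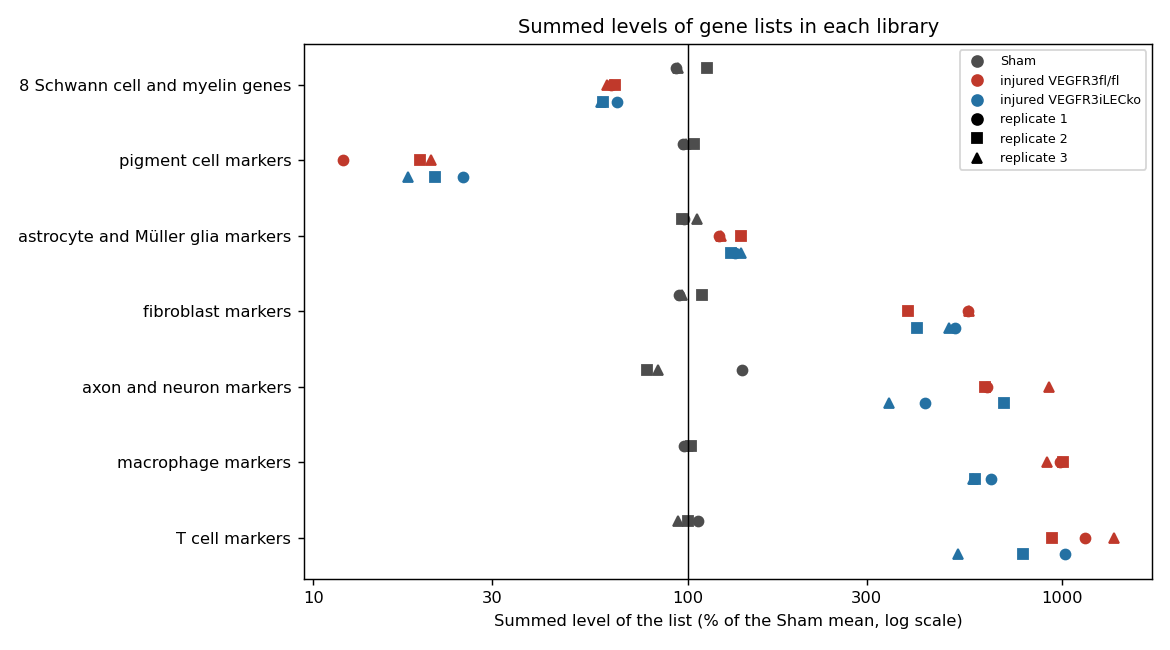
Summed CPM of 7 gene lists in each library as a percentage of the list's Sham mean (x axis, log scale). Colors mark groups and shapes mark replicates. In the 6 injured libraries the 8 Schwann cell and myelin genes stand between 58.5% and 64.6%, and the pigment cell markers between 12.0% and 25.1%. Macrophage, T cell, fibroblast and axon markers stand there at 345% or more. *Nefm* alone made 36.9 to 166 CPM of axon sums of 148.5 to 220 CPM in injured *VEGFR3fl/fl*. In injured *VEGFR3iLECko* it made 17.7 to 106 CPM of 82.2 to 166 CPM.

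Summed over the 8 genes, the level was 651 to 788 CPM in Sham, 426 to 447 CPM in injured *VEGFR3fl/fl* and 409 to 452 CPM in injured *VEGFR3iLECko*. Both injured groups overlapped and lay below Sham. *Pmp22* and *S100b* make up most of this sum, so it follows these genes rather than all 8.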

How the data were processed

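RNA was extracted from 9 iris samples, and libraries were sequenced as single-end reads of 50 bases. The authors deposited estimated counts per gene, without normalization, of which 9.83% to 10.3% per library were not whole numbers. The submitters' processing notes name mm10, HISAT2 2.0.4, Bowtie2 2.2.5 and DESeq2 1.4.5. The counting program, its strand setting and the annotation are not given in the sources used here. A combined table with the same values and group averages was not used. Groups were taken from the titles of the libraries. Each library pools 3 irises.

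Estimated counts were rounded and analyzed in R 4.3.3 with edgeR 4.0.16. filterByExpr kept 15010 of 18349 genes and was used in place of the TPM filter of the study. All 9 libraries were normalized by TMM (factors 0.90 to 1.09) and fitted with group as the only term by glmQLFit and glmQLFTest, and p-values were adjusted across the 15010 genes by the Benjamini-Hochberg method. Called genes passed 0.05 after adjustment and differed more than 1.5-fold. SEs were computed from the F statistic, and intervals are 95%. Counting intervals are exact and cover counting error only. DESeq2 1.42.0, other normalizations, no filter, other fold thresholds, a fit of 6 libraries, omission of single libraries and a replicate block were alternatives. The procedure was tested on simulated data. GENCODE M21 gave positions, and transcript lengths for 96.8% of genes. The most similar genes were the 3 with the highest Pearson r of log2 CPM (prior count 1) among those with a mean of at least 1 CPM. All 8 genes are given, and further list genes were named when called in a comparison or when on a short list of known regulators and markers. *Snap25* was named besides, as the tested axon and neuron marker not called after CAI. The 8 genes and the lists were chosen with earlier results of these data known. The labels do not say whether libraries of 1 group came from separate litters, so p-values measure the spread between these libraries. Results on some genes of the lists are not reported here.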

Additional observations from a re-analysis of the deposited data

How the results depend on the processing

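Over 60 log2 fold changes of single genes, 960 values were computed under alternatives to the fit described. Of these 921 kept their direction and their side of the thresholds, 6 lost a call, 17 gained one and 16 changed sign. The calls of *Sox10*, *S100b*, *Prx*, *Egr2* and *Gfap* after CAI in *VEGFR3fl/fl* held under every alternative run except a 2-fold threshold, which left 4 without *Prx*, and leaving out single libraries gave 5 calls each time. In injured *VEGFR3iLECko* against Sham leaving out single libraries gave 3 to 5 calls among the 8 genes, and 6 when the 6 libraries compared were fitted alone. Between the injured groups, the further list genes gave 4 calls by DESeq2 and 0 to 2 with a library left out, the most without injured *VEGFR3fl/fl* replicate 2 (*Adgrg6* and *Gal3st1*). Changes of sign concerned values near 0. When single libraries were left out, the log2 difference ranged from -0.94 to 0.16 for *Ncmap* (0.0047 and 0.155 without injured *VEGFR3fl/fl* replicates 2 and 3), from -0.015 to 0.29 for *Jun* and from -0.065 to 0.27 for *Ngfr* after CAI. It ranged from -0.020 to 0.056 for *Pmp22* and from -0.27 to 0.084 for *S100b* between the injured groups, and from -0.071 to 0.0046 for *Pmp22* in *VEGFR3iLECko* against Sham. Upper quartile normalization gave -0.0010 for *Pmp22* between the injured groups. Scaling by library size alone gave -0.011 for *Jun*, -0.036 for *Erbb2* and -0.063 for *Ngfr* after CAI, where it shifted the median of all genes by -0.17. The cause of other changes was not tested. Replicate numbers are shared between groups, but same-numbered libraries did not deviate together (r from -0.385 to 0.121). With the replicate block 5, 0 and 5 of the 8 genes were called after CAI, between the injured groups and in *VEGFR3iLECko* against Sham, and 31, 0 and 30 of the further list genes. *Gfap* in the last comparison was then 1.30 (adjusted p = 0.0447), and not every library correlated best with those of its own number. Low counts limit *Ncmap*, *Ugt8a* and *Fa2h*, and 3 libraries per group limit *Gfap*.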
